A study of Arabidopsis thaliana with 42 samples.

Results

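The 824 loci described here are transposable element (TE) loci with a weak transcript level in the Arabidopsis thaliana mutant ddm1. They are the loci with a transposon identifier (a chromosome number, TE and a running number, as in AT3TE51900) whose deposited counts-per-million (CPM) level averaged at least 1 and under 10 over the 3 ddm1 libraries. The table lists 1936 TE loci among 25069 loci of all kinds. Of the TE loci, 389 averaged under 1 CPM in ddm1 and 723 averaged 10 CPM or more. The loci were thus chosen by their ddm1 level, so every value set against ddm1 is given as a description. The contrasts between double mutants use libraries that had no part in the choice and were tested. The choice can still bear on them, because loci picked by their ddm1 level tend to have a like level in a genotype near ddm1.

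PolyA RNA was sequenced from whole seedlings 2 weeks old, grown at 22 °C in days of 16 h light and 8 h dark, after 7 days of cold as seed. The 12 libraries fall into 4 genotypes with 3 libraries each, ddm1cmt2, ddm1nrpd1, ddm1nrpe1 and ddm1, and all 4 genotypes carry the ddm1 mutation. The labels name no allele for these libraries, spell the third genotype ddm1npre1, and do not say whether replicates came from separate plates, so a p-value here weighs a difference against the spread of these libraries, which may be technical. No wild-type RNA library was used, and the study's stated question is whether the CMT2 route and RNA-directed DNA methylation (RdDM) interact genetically.

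Transposons in plant heterochromatin are kept silent by DNA methylation in CG and non-CG contexts and by methylation of histone H3 at lysine 9. DDM1 is a nucleosome remodeller that gives methyltransferases access to heterochromatin, and its loss releases transcription from many transposons. CMT2 is a chromomethylase that maintains non-CG methylation at heterochromatic transposons by binding methylated H3. NRPD1 is the catalytic subunit of RNA polymerase IV, which makes the precursors of small interfering RNAs. NRPE1 is that of RNA polymerase V, whose scaffold transcripts let those RNAs guide the methyltransferase DRM2.

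Total counts per library were 10838313 to 18131394 in ddm1cmt2, 14912871 to 24788784 in ddm1nrpd1, 16348102 to 18792851 in ddm1nrpe1 and 7842329 to 10160025 in ddm1, the shallowest genotype. Libraries of one genotype correlated at r = 0.973 to 0.992 across all tested loci on the log2 scale and at r = 0.799 to 0.973 across the 824 loci, with genes and loci not being independent replicates. Counts on plastid loci made up 0.779 to 0.924% of ddm1cmt2 libraries, 0.164 to 0.263% of ddm1nrpd1 libraries, 0.124 to 0.309% of ddm1nrpe1 libraries and 1.57 to 1.97% of ddm1 libraries. Transcripts of the mutated genes were still counted, and which part of each gene a mutation removes is not stated, so these levels do not check the labels. CMT2 was at 25.9, 26.5 and 28.0 CPM in ddm1cmt2, against 35.2, 30.2 and 29.9 CPM in ddm1. NRPD1 was at 15.0, 13.8 and 13.7 CPM in ddm1nrpd1, against 4.28, 6.30 and 6.63 CPM in ddm1. NRPE1 was at 55.7, 55.1 and 65.2 CPM in ddm1nrpe1, against 13.1, 12 and 14.1 CPM in ddm1. ROS1, a DNA demethylase gene whose transcription is known to depend on RdDM at its promoter, was at 36.0 ± 6.71 CPM in ddm1cmt2, 2.64 ± 0.672 CPM in ddm1nrpd1, 2.27 ± 0.823 CPM in ddm1nrpe1 and 42.1 ± 3.91 CPM in ddm1 (SD, n = 3 each). Both polymerase mutants were thus low for ROS1 in every library, and ddm1cmt2 was near ddm1.

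The summed level of the 824 loci was highest in the polymerase double mutants and lowest in ddm1cmt2, a little below ddm1. Levels below are CPM scaled between libraries by TMM (trimmed mean of M values, which sets the bulk of loci equal). The sum was 2681, 3018 and 3017 CPM in ddm1cmt2, 5773, 5205 and 5318 CPM in ddm1nrpd1, 6755, 6690 and 6929 CPM in ddm1nrpe1, and 3140, 3087 and 3416 CPM in ddm1. No ddm1cmt2 library reached any polymerase mutant library, and no ddm1nrpd1 library reached any ddm1nrpe1 library, while the ddm1cmt2 libraries were all below the ddm1 libraries by a smaller margin. In RNA from whole seedlings, more cells with an active locus and more RNA per cell cannot be told apart. As a share of all counts the sum was 0.267 ± 0.0198% in ddm1cmt2, 0.568 ± 0.0306% in ddm1nrpd1, 0.684 ± 0.0144% in ddm1nrpe1 and 0.332 ± 0.0161% in ddm1 (SD, n = 3 each). A few loci carried part of the excess in the polymerase mutants, but most of it remained when the leading loci were left out. The 6 most abundant loci held 3.91% of the summed level in ddm1cmt2, 11.9% in ddm1nrpd1, 17.5% in ddm1nrpe1 and 1.79% in ddm1. It took 184 loci to hold 50% of the sum in ddm1cmt2, 102 in ddm1nrpd1, 69 in ddm1nrpe1 and 218 in ddm1. The rule kept every locus under 10 CPM in ddm1, so both ddm1 values are bounded by the choice and are no free baseline. Without the 7 loci that ranked in the top 6 of either polymerase mutant, the means were 2861 ± 198 CPM in ddm1cmt2, 4754 ± 292 CPM in ddm1nrpd1, 5510 ± 118 CPM in ddm1nrpe1 and 3173 ± 171 CPM in ddm1 (SD, n = 3 each).

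**Figure D1:**
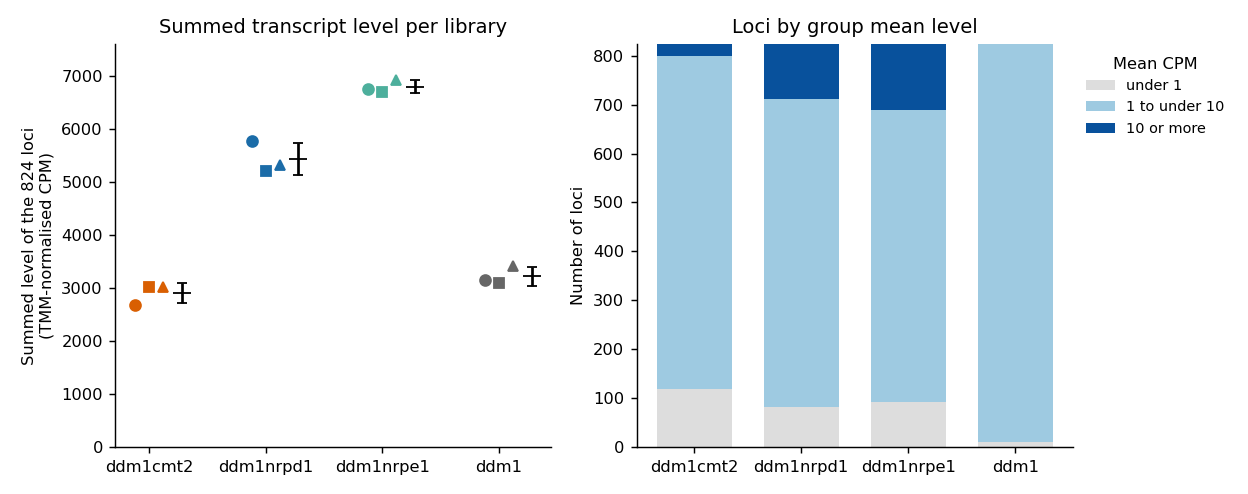
Left, summed level of the 824 TE loci in each library (TMM-normalised CPM, axis from 0), with circle, square and triangle for replicates 1, 2 and 3 and the bar giving mean ± SD of 3 libraries. Right, the number of loci whose genotype mean was under 1, from 1 to under 10, or at least 10 CPM. Loci that reached 10 CPM numbered 25 in ddm1cmt2, 112 in ddm1nrpd1, 135 in ddm1nrpe1 and 0 in ddm1, where the rule that chose the loci bounds the level.

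In the double mutants the loci spread out of the window in both directions. The rule held ddm1 to the window, so a wider spread in other genotypes follows in part from the choice. The ddm1 values given beside them are bounded by the rule. The median locus was at 2.66 CPM in ddm1cmt2, 3.61 CPM in ddm1nrpd1, 3.89 CPM in ddm1nrpe1 and 3.17 CPM in ddm1, so the genotypes differed far less at the middle locus than in the sum. Loci at 50 CPM or more numbered 0 in ddm1cmt2, 8 in ddm1nrpd1, 14 in ddm1nrpe1 and 0 in ddm1. Loci under 1 CPM numbered 119 in ddm1cmt2, 81 in ddm1nrpd1, 92 in ddm1nrpe1 and 10 in ddm1, where the TMM scale shifts a few loci past the edge that the deposited CPM set. The most abundant locus stood at 22.7 CPM in ddm1cmt2, 164 CPM in ddm1nrpd1, 312 CPM in ddm1nrpe1 and 9.68 CPM in ddm1. The median coefficient of variation over 3 libraries was 24.5% in ddm1cmt2, 14.8% in ddm1nrpd1, 13.8% in ddm1nrpe1 and 20.7% in ddm1, so the levels were least even in the genotypes with the lowest mean depth.

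Loci just inside and just outside the window had nearly the same level in ddm1. At the lower edge, AT3TE86800 averaged 1.00 ± 0.603 deposited CPM in ddm1 and lay inside, while AT5TE42435 averaged 0.999 ± 0.57 CPM and lay outside (SD, n = 3). At the upper edge, AT1TE96100 averaged 9.99 ± 1.01 CPM and lay inside, while AT3TE68090 averaged 10.02 ± 1.38 CPM and lay outside. The spread between ddm1 libraries was wider than the distance to the edge at all 4 of these loci. AT1TE45175, at 10.07 ± 2.67 deposited CPM in ddm1 and so just outside, stood at 5.88 CPM in ddm1cmt2, 49.9 CPM in ddm1nrpd1 and 105 CPM in ddm1nrpe1, in the order that many loci inside the window also had.

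In ddm1cmt2 against ddm1nrpd1, more of the loci were lower than higher in ddm1cmt2. This tilt varied with the ddm1 level by which the loci were chosen, as described below. How far the choice itself shapes it was not tested. All 824 passed the filter on low counts, and the quasi-likelihood test of edgeR (Benjamini-Hochberg adjusted p under 0.05 over all 24839 tested loci) called 321 loci, 39.0%, lower in ddm1cmt2, beside 24.5% of all tested loci. It called 137 loci, 16.6%, higher, beside 26.0% of all tested loci. The median log2 fold change was -0.31 over the 824 loci and 0.02 over all tested loci. With at least a 2-fold change required, 239 loci (29.0%) were lower in ddm1cmt2, beside 9.84% of all tested loci, and 78 loci (9.47%) were higher, beside 8.04%. At least 4-fold, 117 loci (14.2%) were lower, beside 3.28% of all tested loci, and 20 (2.43%) were higher, beside 2.32%. The 8657 other tested loci whose ddm1 level lies in the same window were lower in 21.3% and higher in 21.4%, with a median of -0.01.

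Leaf and root marker genes differed between these genotypes as well. The summed level of 9 leaf marker genes was 61800 to 70300 CPM in ddm1cmt2 and 38300 to 42800 CPM in ddm1nrpd1, with 5 of the 9 higher in ddm1cmt2 and 0 lower. Those 5 (CAB1, LHCB2.1, LHCB5, LHCB6 and LHCA1) all encode light-harvesting antenna proteins, and RBCS1A, RCA, CA1 and GAPA had adjusted p of 0.16 to 0.37. The 12 root markers summed to 327 to 345 CPM in ddm1cmt2 and 278 to 318 CPM in ddm1nrpd1, with 6 higher and 1 lower, the lower one being SCR. The root hair genes PRP3, EXPA7 and COBL9 averaged 43.3, 10 and 6.86 CPM in ddm1cmt2, against 0.105, 0.0343 and 0.0687 CPM in ddm1nrpd1. RHD6, a root hair regulator of the same list, averaged 2.55 and 1.81 CPM in these genotypes (edgeR adjusted p = 0.17). In ddm1nrpe1, PRP3, EXPA7 and COBL9 averaged 18.1, 4.92 and 2.85 CPM. Of 4 pollen markers 1 was in the table and of 3 seed markers 0, and the pollen marker was at 1.72 to 2.07 CPM in ddm1cmt2 and 1.91 to 2.06 CPM in ddm1nrpd1. Regulation of these genes and tissue composition cannot be told apart here, and their part in the results on the TE loci was not tested.

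At the 2 loci farthest below ddm1nrpd1 in ddm1cmt2, the ddm1cmt2 level was near that of ddm1 and both polymerase mutants were far above it. AT3TE51900, on chromosome 3 by its identifier, had 1.92, 2.01 and 1.83 CPM in ddm1cmt2, 118, 153 and 161 CPM in ddm1nrpd1, 190, 331 and 416 CPM in ddm1nrpe1, and 2.53, 2.59 and 3.75 CPM in ddm1. Every polymerase mutant library was far above every ddm1cmt2 and ddm1 library, and the log2 fold change of ddm1cmt2 against ddm1nrpd1 was -6.22 ± 0.33 (SE, edgeR adjusted p = 2.6e-08). Its neighbour in the numbering, AT3TE51895, had 3.03, 3.53 and 1.28 CPM in ddm1cmt2, 180, 149 and 164 CPM in ddm1nrpd1, 141, 171 and 191 CPM in ddm1nrpe1, and 2.96, 2.35 and 3.46 CPM in ddm1. The 2 loci behaved alike against ddm1cmt2, and the log2 fold change of AT3TE51895 against ddm1nrpd1 was -5.93 ± 0.23 (SE, edgeR adjusted p = 1.2e-10).

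On chromosome 1, AT1TE44720 and AT1TE45560 showed the same order. AT1TE44720 had 1.11, 1.46 and 2.83 CPM in ddm1cmt2, 62.4, 52.4 and 47.5 CPM in ddm1nrpd1, 57.6, 49.6 and 58.3 CPM in ddm1nrpe1, and 1.65, 1.23 and 2.40 CPM in ddm1. AT1TE45560 had 0.908, 0.487 and 1.37 CPM in ddm1cmt2, 28.0, 24.5 and 23.3 CPM in ddm1nrpd1, 30.9, 28.6 and 27.0 CPM in ddm1nrpe1, and 0.878, 1.48 and 1.06 CPM in ddm1. Their log2 fold changes of ddm1cmt2 against ddm1nrpd1 were -4.92 ± 0.22 and -4.85 ± 0.22 (SE). The ddm1cmt2 and ddm1 libraries overlapped at both loci, and so did the libraries of the polymerase mutants. AT5TE42860 averaged 1.99 ± 1.18 CPM in ddm1cmt2 and 37.0 ± 5.73 CPM in ddm1nrpd1, and AT3TE47360 averaged 0.566 ± 0.333 CPM in ddm1cmt2 and 10.6 ± 1.51 CPM in ddm1nrpd1 (SD, n = 3 each).

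At a smaller set of loci ddm1cmt2 was below ddm1 too. AT2TE13685 had 0.101, 0.182 and 0 CPM in ddm1cmt2, 4.46, 3.85 and 4.86 CPM in ddm1nrpd1, 0.887, 1.32 and 1.46 CPM in ddm1nrpe1, and 1.54, 1.11 and 2.02 CPM in ddm1. The ddm1cmt2 libraries were below every other library. Its log2 fold change of ddm1cmt2 against ddm1nrpd1 was -5.25 ± 0.44 (SE, edgeR adjusted p = 1.1e-07), and -6.27 without ddm1cmt2 replicate 2. AT3TE71565 had 0, 0.182 and 0.0913 CPM in ddm1cmt2 and 2.88, 1.83 and 2.33 CPM in ddm1nrpd1, with a log2 fold change of -4.34 ± 0.46 (SE, edgeR adjusted p = 1.4e-06), or -5.36 without ddm1cmt2 replicate 2. AT2TE38910 averaged 0.637 ± 0.473 CPM in ddm1cmt2, 6.62 ± 0.815 CPM in ddm1nrpd1, 7.59 ± 1.37 CPM in ddm1nrpe1 and 8.73 ± 3.43 CPM in ddm1 (SD, n = 3 each), so here the polymerase mutants were at the ddm1 level and ddm1cmt2 was the genotype apart.

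Of the loci higher in ddm1cmt2 than in ddm1nrpd1, those with the largest fold changes had few or no counts in ddm1nrpd1. AT5TE71590 had 4.94, 5.41 and 7.58 CPM in ddm1cmt2, 0 counts in all 3 ddm1nrpd1 libraries, 1.83, 1.93 and 1.83 CPM in ddm1nrpe1, and 6.15, 7.53 and 5.38 CPM in ddm1. The 221 counts in ddm1cmt2 against a floor of 3 counts over the ddm1nrpd1 group make it at least 116-fold higher in ddm1cmt2 (edgeR adjusted p = 5.3e-09). Its neighbour AT5TE71595 also had 0 counts in ddm1nrpd1 and was at least 29.4-fold higher in ddm1cmt2, with 56 counts (edgeR adjusted p = 3e-05). AT3TE47880 had 44 counts in ddm1cmt2 and 1 count in ddm1nrpd1, a depth-scaled ratio of 69.2 with a 95% exact binomial counting interval of 11.8 to 2790. Intervals and floors cover counting error only. The ddm1nrpd1 libraries were at or next to 0 at all 3 of these loci, and the ddm1cmt2 libraries were near the ddm1 libraries.

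Other loci of this direction had moderate levels. AT3TE47620 had 2.32, 2.80 and 2.19 CPM in ddm1cmt2 and 0.235, 0.267 and 0.389 CPM in ddm1nrpd1, a log2 fold change of 3.04 ± 0.34 (SE, edgeR adjusted p = 2.7e-06). AT1TE57530 had 2.22, 2.37 and 3.38 CPM in ddm1cmt2 and 0.470, 0.381 and 0.519 CPM in ddm1nrpd1, a log2 fold change of 2.54 ± 0.28 (SE, edgeR adjusted p = 1.9e-06). The groups did not overlap at either locus. AT1TE43430 averaged 1.21 ± 0.76 CPM in ddm1cmt2 and 0.0666 ± 0.0089 CPM in ddm1nrpd1 (SD, n = 3 each), and AT5TE36330 averaged 1.80 ± 0.706 CPM in ddm1cmt2 and 0.274 ± 0.13 CPM in ddm1nrpd1. AT5TE39230 was uneven, at 1.31, 20.9 and 11.5 CPM in ddm1cmt2 against 1.12, 1.18 and 0.843 CPM in ddm1nrpd1. Its log2 fold change of 3.44 ± 1.03 (SE, edgeR adjusted p = 0.021) became 2.60 (adjusted p = 0.0885) without ddm1cmt2 replicate 2, and the adjusted p was 0.0597 to 0.0651 without any one ddm1nrpd1 library.

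In ddm1cmt2 against ddm1nrpe1 the counts had the same tilt, with the same limit from the choice of loci. Of the 824 loci, 340 (41.3%) were lower in ddm1cmt2, beside 28.2% of all tested loci, and 123 (14.9%) were higher, beside 26.9%. The median log2 fold change was -0.36, and that of all tested loci was 0. At least 2-fold, 262 loci (31.8%) were lower, beside 11.0% of all tested loci, and 71 (8.62%) were higher, beside 8.84%. At least 4-fold, 137 loci (16.6%) were lower, beside 4.24% of all tested loci, and 17 (2.06%) were higher, beside 2.05%. Other loci of the same ddm1 window were lower in 24.2% and higher in 24.2%. The leaf markers summed to 34500 to 47500 CPM in ddm1nrpe1 and the root markers to 226 to 242 CPM, below the ddm1cmt2 sums given above, with 9 of 9 leaf markers and 8 of 12 root markers higher in ddm1cmt2. This comparison uses the same ddm1cmt2 libraries as the one against ddm1nrpd1, so these comparisons are not independent.

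Among loci lower in ddm1cmt2 than in ddm1nrpe1, the largest fold changes were again at AT3TE51900, with a log2 fold change of -7.33 ± 0.33, and AT3TE51895, with -5.95 ± 0.23 (SE). AT1TE46265 had 4.44, 4.08 and 8.58 CPM in ddm1cmt2, 98.8, 100 and 115 CPM in ddm1nrpd1, 277, 265 and 296 CPM in ddm1nrpe1, and 8.78, 9.14 and 10 CPM in ddm1. The log2 fold change of ddm1cmt2 against ddm1nrpe1 was -5.64 ± 0.20 (SE, edgeR adjusted p = 1.8e-11). AT5TE42680 had 2.22, 3.16 and 4.38 CPM in ddm1cmt2, 35.3, 30.1 and 37.4 CPM in ddm1nrpd1, 105, 97.9 and 115 CPM in ddm1nrpe1, and 5.05, 3.21 and 5.77 CPM in ddm1, a log2 fold change of -5.02 ± 0.19 against ddm1nrpe1 (SE, edgeR adjusted p = 2.3e-11). At both loci the ddm1nrpe1 libraries were highest and the ddm1nrpd1 libraries lay between them and ddm1. AT1TE51985 averaged 2.87 ± 0.293 CPM in ddm1cmt2 and 70.3 ± 5.58 CPM in ddm1nrpe1, and AT5TE43990 averaged 1.67 ± 0.737 CPM in ddm1cmt2 and 41.0 ± 2.84 CPM in ddm1nrpe1 (SD, n = 3 each).

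Among the loci higher in ddm1cmt2 than in ddm1nrpe1, AT2TE58010 was the most abundant. It had 18.9, 20.3 and 14.8 CPM in ddm1cmt2, 5.05, 5.34 and 8.24 CPM in ddm1nrpd1, 1.48, 1.54 and 2.16 CPM in ddm1nrpe1, and 5.38, 5.06 and 8.56 CPM in ddm1. The ddm1cmt2 libraries were above and the ddm1nrpe1 libraries below all others, with a log2 fold change of 3.38 ± 0.25 (SE, edgeR adjusted p = 3e-08). AT3TE94580 had 9.99, 12.8 and 8.31 CPM in ddm1cmt2 and 2.13, 1.49 and 2.59 CPM in ddm1nrpe1, a log2 fold change of 2.33 ± 0.21 (SE, edgeR adjusted p = 1.8e-07). AT3TE18040 averaged 4.90 ± 0.954 CPM in ddm1cmt2 and 0.466 ± 0.131 CPM in ddm1nrpe1, and AT1TE37215 averaged 2.03 ± 0.673 CPM in ddm1cmt2 and 0.332 ± 0.179 CPM in ddm1nrpe1 (SD, n = 3 each). AT5TE52850 had 104 counts in ddm1cmt2 and 3 in ddm1nrpe1, a depth-scaled ratio of 49.8 with a 95% counting interval of 16.6 to 245. AT3TE47880, with 44 counts in ddm1cmt2 and 0 in ddm1nrpe1, was at least 21.1-fold higher in ddm1cmt2.

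**Figure D2:**
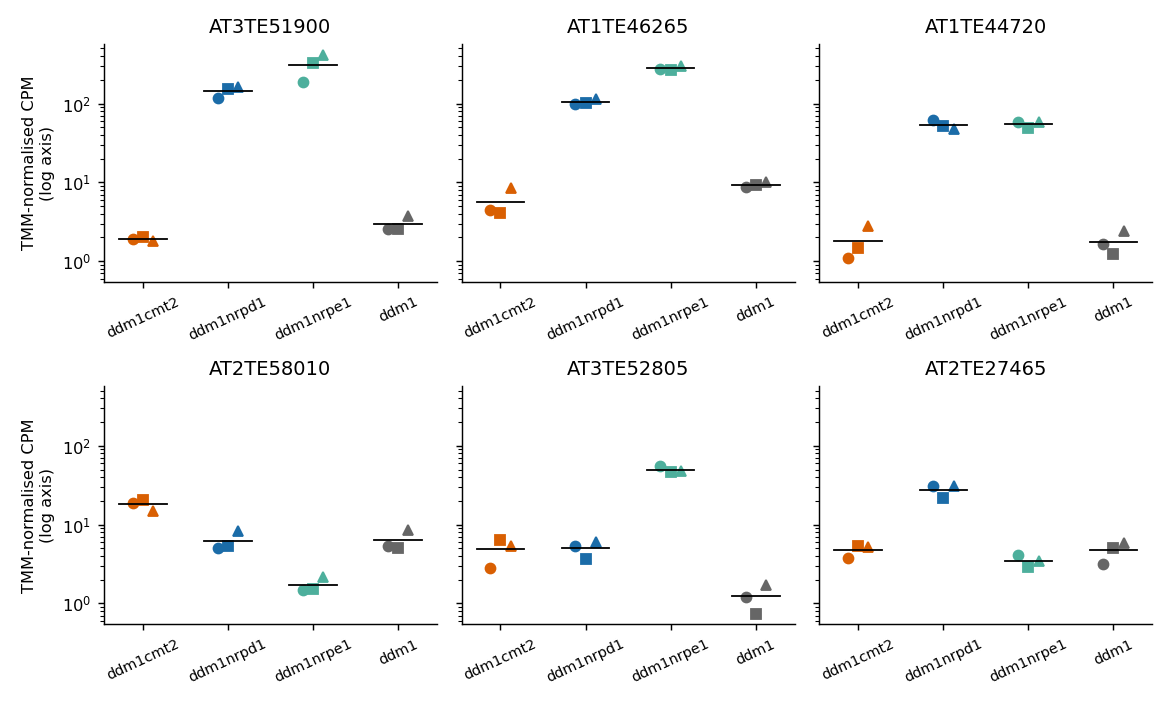
Level of 6 named TE loci in each library (TMM-normalised CPM, log axis), with circle, square and triangle for replicates 1, 2 and 3 and a line at the mean of 3. AT3TE51900, AT1TE46265 and AT1TE44720 are high in both polymerase double mutants, AT2TE58010 in ddm1cmt2, AT3TE52805 in ddm1nrpe1 and AT2TE27465 in ddm1nrpd1.

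Against both polymerase mutants at once, all 3 ddm1cmt2 libraries were below all 6 polymerase mutant libraries at 278 loci (33.7%), beside 19.5% of all tested loci. All 3 were above all 6 at 77 loci (9.34%), beside 20.0% of all tested loci. The libraries overlapped at the other 469 loci.

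Between the polymerase mutants the differences were smaller. In ddm1nrpd1 against ddm1nrpe1, 203 loci (24.6%) were lower in ddm1nrpd1, beside 19.7% of all tested loci, and 133 (16.1%) were higher, beside 16.4%. The median log2 fold change was -0.07, against -0.03 over all tested loci. At least 2-fold, 90 loci (10.9%) were lower, beside 5.37% of all tested loci, and 69 (8.37%) were higher, beside 4.26%. At least 4-fold, 14 loci (1.70%) were lower, beside 1.21% of all tested loci, and 9 (1.09%) were higher, beside 0.717%. Without ddm1nrpe1 replicate 2 the number of higher calls was 82. Of the leaf markers 0 were higher and 1 lower in ddm1nrpd1, and of the root markers 3 were higher and 3 lower.

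Among loci that passed all 3 tests between double mutants, the 6 with the smallest largest adjusted p had one order. At AT1TE48660, AT5TE42680, AT4TE14035, AT1TE48835, AT1TE46265 and AT4TE18740, ddm1cmt2 was lowest, ddm1nrpd1 was in the middle and ddm1nrpe1 was highest, with no overlap between these 3 genotypes. AT1TE48660 had 1.72, 1.34 and 1.55 CPM in ddm1cmt2, 13.0, 14.8 and 14.8 CPM in ddm1nrpd1, 36.9, 33.3 and 34.8 CPM in ddm1nrpe1, and 0.988, 1.23 and 1.63 CPM in ddm1. Its log2 fold change of ddm1nrpd1 against ddm1nrpe1 was -1.30 ± 0.11 (SE, edgeR adjusted p = 4.9e-07). AT1TE48835 had 4.14, 5.05 and 4.02 CPM in ddm1cmt2, 48.8, 50.4 and 50.3 CPM in ddm1nrpd1, 91.9, 86.8 and 89.5 CPM in ddm1nrpe1, and 8.35, 7.78 and 9.52 CPM in ddm1, so ddm1cmt2 was also below ddm1 here. AT4TE14035 averaged 4.72 ± 0.722 CPM in ddm1cmt2, 42.1 ± 3.56 CPM in ddm1nrpd1, 84.3 ± 5.55 CPM in ddm1nrpe1 and 6.45 ± 0.817 CPM in ddm1 (SD, n = 3 each). AT4TE18740 averaged 1.56 ± 0.294 CPM in ddm1cmt2, 7.03 ± 0.406 CPM in ddm1nrpd1, 17.8 ± 2.01 CPM in ddm1nrpe1 and 1.87 ± 0.674 CPM in ddm1.

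Some loci were high in ddm1nrpe1 and not in ddm1nrpd1. AT3TE52805 had 5.29, 3.7 and 6.03 CPM in ddm1nrpd1, against 54.7, 46.1 and 48.3 CPM in ddm1nrpe1, a log2 fold change of -3.34 ± 0.22 (SE, edgeR adjusted p = 1.7e-07). Its ddm1cmt2 mean was 4.84 ± 1.83 CPM and its ddm1 mean 1.23 ± 0.495 CPM (SD, n = 3 each). AT1TE47580 had 6.58, 5.76 and 6.29 CPM in ddm1nrpd1, against 49.0, 50.5 and 40.6 CPM in ddm1nrpe1, a log2 fold change of -2.91 ± 0.15 (SE, edgeR adjusted p = 2.7e-09). Its ddm1cmt2 mean was 5.66 ± 1.52 CPM and its ddm1 mean 2.98 ± 0.277 CPM. At both loci the ddm1nrpd1 and ddm1cmt2 libraries overlapped and the ddm1nrpe1 libraries stood alone.

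AT2TE21705 had 0.176, 0.458 and 0.649 CPM in ddm1nrpd1, against 7.63, 5.51 and 4.15 CPM in ddm1nrpe1, a log2 fold change of -3.73 ± 0.36 (SE, edgeR adjusted p = 1.9e-06). AT1TE51945 had 3.17, 2.36 and 2.27 CPM in ddm1nrpd1, against 11.5, 15.9 and 12.7 CPM in ddm1nrpe1, a log2 fold change of -2.37 ± 0.22 (SE, edgeR adjusted p = 9.5e-07). Their ddm1 means were 1.26 ± 0.545 and 2.70 ± 0.256 CPM, so the first was lower in ddm1nrpd1 than in ddm1 and the second overlapped it. The other loci named for this direction were AT3TE35825, AT3TE57160 and AT1TE46775, with means of 0.812, 0.539 and 1.05 CPM in ddm1nrpd1 and 9.45, 2.95 and 5.72 CPM in ddm1nrpe1. AT5TE71590, with 0 counts in ddm1nrpd1 and 100 in ddm1nrpe1, was at least 36.5-fold lower in ddm1nrpd1.

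Fewer loci had the opposite order. AT2TE27465 had 30.5, 21.9 and 30.7 CPM in ddm1nrpd1, against 4.08, 2.92 and 3.45 CPM in ddm1nrpe1, a log2 fold change of 2.99 ± 0.20 (SE, edgeR adjusted p = 5.3e-08). The locus beside it in the numbering, AT2TE27460, had 8.75, 7.36 and 9.02 CPM in ddm1nrpd1, against 1.77, 1.05 and 1.56 CPM in ddm1nrpe1, a log2 fold change of 2.51 ± 0.27 (SE, edgeR adjusted p = 5.3e-06). Both were high in ddm1nrpd1 and in no other genotype, with means of 4.78 and 0.999 CPM in ddm1cmt2 and 4.70 and 1.12 CPM in ddm1. AT2TE38575 differed in kind: it averaged 2.41 ± 0.373 CPM in ddm1cmt2, 4.32 ± 1.29 CPM in ddm1nrpd1, 0.693 ± 0.134 CPM in ddm1nrpe1 and 4.48 ± 1.48 CPM in ddm1 (SD, n = 3 each), so ddm1nrpe1 was low rather than ddm1nrpd1 high. AT5TE52850 had 61 counts in ddm1nrpd1 and 3 in ddm1nrpe1, a depth-scaled ratio of 18.6 with a 95% counting interval of 6.06 to 92.6. AT5TE43895 and AT1TE39375 averaged 1.64 and 1.96 CPM in ddm1nrpd1 and 0.371 and 0.464 CPM in ddm1nrpe1. AT5TE36785 averaged 1.68 ± 0.593 CPM in ddm1nrpd1 and 0.145 ± 0.164 CPM in ddm1nrpe1, a log2 fold change of 3.41 ± 0.63, or 4.68 without ddm1nrpe1 replicate 3. AT3TE43550 rested on 1 library, with 10.8, 1.45 and 1.69 CPM in ddm1nrpd1 against 0.887, 0.717 and 0.701 CPM in ddm1nrpe1, and its log2 fold change of 2.56 ± 0.79 (SE, edgeR adjusted p = 0.029) was 1.01 without ddm1nrpd1 replicate 1. That call was lost without any one ddm1nrpe1 library (adjusted p = 0.0729 to 0.0924).

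**Figure D3:**
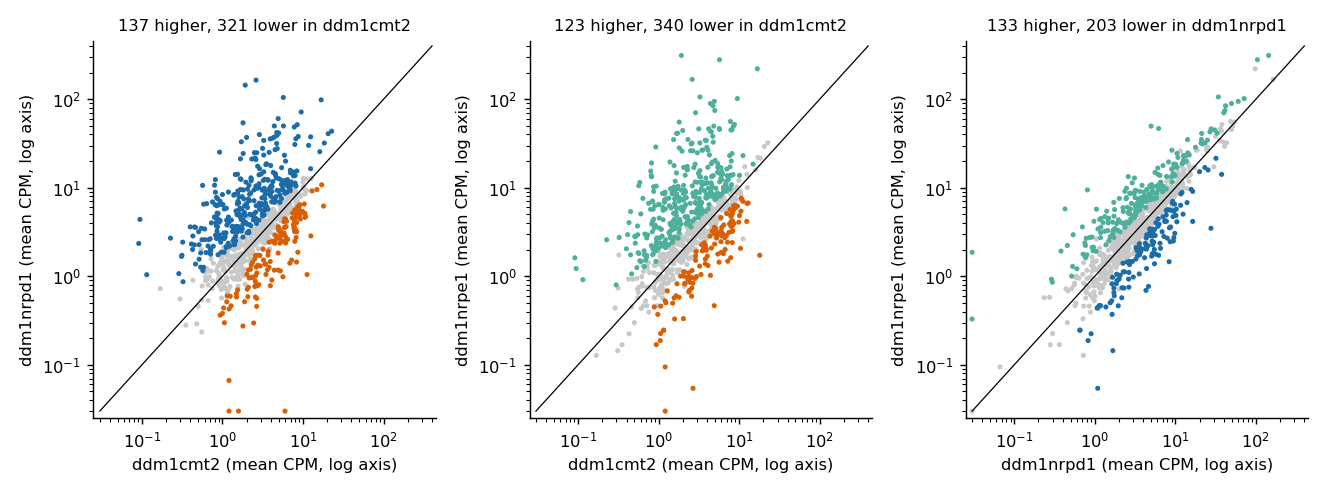
Mean level of the 824 TE loci in pairs of double mutants (TMM-normalised CPM, both axes log, the first-named genotype on the horizontal axis), with means under 0.03 CPM drawn at 0.03. Coloured points passed an adjusted p under 0.05, in the colour of the genotype in which they are higher, grey points did not, and the line marks equal levels; 321 and 340 loci were lower in ddm1cmt2 than in ddm1nrpd1 and ddm1nrpe1, and 203 were lower in ddm1nrpd1 than in ddm1nrpe1.

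Set against ddm1, from whose libraries the loci were chosen, the counts are a description with no test read from them. In ddm1cmt2, 178 loci (21.6%) were past the threshold below ddm1 and 55 (6.67%) above it, beside 17.7% and 18.4% of all tested loci. In ddm1nrpd1, 168 loci (20.4%) were below ddm1 and 230 (27.9%) above it, beside 21.7% and 22.9%. In ddm1nrpe1, 186 loci (22.6%) were below and 267 (32.4%) above, beside 23.9% and 26.5%. At least 2-fold, 101 loci were below ddm1 and 22 above it in ddm1cmt2, beside 4.68% and 5.99% of all tested loci. In ddm1nrpd1 these counts were 89 and 161, beside 6.30% and 8.82%, and in ddm1nrpe1 they were 109 and 201, beside 7.66% and 10.7%. The median log2 fold changes against ddm1 were -0.26 for ddm1cmt2, 0.05 for ddm1nrpd1 and 0.11 for ddm1nrpe1. Irrespective of the test, loci at least 4-fold above ddm1 numbered 1 in ddm1cmt2, 71 in ddm1nrpd1 and 102 in ddm1nrpe1. Loci at least 4-fold below ddm1 numbered 17, 21 and 26 in the same order. The share of all tested loci was not computed for these counts. The 3 comparisons share the ddm1 libraries.

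The loci farthest above ddm1 in the polymerase mutants were those already described, led by AT3TE51895 in ddm1nrpd1 (log2 fold change 5.79 ± 0.23) and by AT3TE51900 in ddm1nrpe1 (6.70 ± 0.32, SE). AT2TE23670 averaged 4.18 ± 0.951 CPM in ddm1cmt2, 36.4 ± 4.45 CPM in ddm1nrpd1, 46.4 ± 7.64 CPM in ddm1nrpe1 and 2.45 ± 1.43 CPM in ddm1 (SD, n = 3 each). AT3TE45980 averaged 4.76 ± 0.433 CPM in ddm1cmt2, 39.1 ± 1.03 CPM in ddm1nrpd1, 32.7 ± 2.77 CPM in ddm1nrpe1 and 2.86 ± 0.575 CPM in ddm1. In both, the polymerase mutants were far above ddm1, and the ddm1cmt2 mean was above the ddm1 mean by a much smaller margin. At AT3TE45980 every ddm1cmt2 library was above every ddm1 library, while at AT2TE23670 they overlapped.

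In ddm1cmt2 the locus farthest above ddm1 was AT1TE41580, at 14.6, 15.3 and 5.20 CPM in ddm1cmt2 against 3.18, 0.617 and 2.98 CPM in ddm1. It was higher still in ddm1nrpd1, at 30.1 ± 6.01 CPM, and stood at 17.2 ± 3.09 CPM in ddm1nrpe1 (SD, n = 3 each). AT3TE60295 averaged 17.1 ± 2.49 CPM in ddm1cmt2, 10.8 ± 2.42 CPM in ddm1nrpd1, 22.0 ± 1.54 CPM in ddm1nrpe1 and 4.33 ± 0.966 CPM in ddm1, so all 3 double mutants were above ddm1. AT2TE28160 stood apart in ddm1cmt2, at 3.94, 4.99 and 3.38 CPM in ddm1cmt2, 0.705, 1.11 and 0.908 CPM in ddm1nrpd1, 1.24, 1.49 and 1.24 CPM in ddm1nrpe1, and 1.21, 1.23 and 1.15 CPM in ddm1. Its log2 fold change was 2.15 ± 0.24 against ddm1nrpd1 and 1.64 ± 0.23 against ddm1nrpe1 (SE, edgeR adjusted p = 2.3e-06 and 2.4e-05). AT2TE26610 and AT3TE59350 averaged 3.83 and 5.53 CPM in ddm1cmt2 and 1.08 and 1.63 CPM in ddm1, with wide spreads of 1.84 and 2.64 CPM between ddm1cmt2 libraries (SD, n = 3).

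Several loci had means below their ddm1 mean in all double mutants. AT3TE48285 averaged 0.770 ± 0.282 CPM in ddm1cmt2, 2.18 ± 0.439 CPM in ddm1nrpd1, 0.743 ± 0.32 CPM in ddm1nrpe1 and 6.40 ± 3.31 CPM in ddm1. AT5TE47515 averaged 0.553 ± 0.228 CPM in ddm1cmt2, 0.235 ± 0.0736 CPM in ddm1nrpd1, 0.572 ± 0.294 CPM in ddm1nrpe1 and 3.17 ± 1.27 CPM in ddm1. AT3TE52430 had 1.76, 1.61 and 7.69 CPM in ddm1, and averaged 0.169, 0.722 and 0.128 CPM in ddm1cmt2, ddm1nrpd1 and ddm1nrpe1, with a log2 fold change of ddm1cmt2 against ddm1 of -4.49, or -3.34 without ddm1 replicate 3. AT3TE59205 averaged 2.67 ± 1.02 CPM in ddm1cmt2, 0.563 ± 0.0961 CPM in ddm1nrpd1, 0.835 ± 0.16 CPM in ddm1nrpe1 and 4.61 ± 0.787 CPM in ddm1, and was lowest in the polymerase mutants. AT4TE46305 averaged 0.115 ± 0.122 CPM in ddm1cmt2, 1.04 ± 0.549 CPM in ddm1nrpd1, 0.916 ± 0.126 CPM in ddm1nrpe1 and 1.73 ± 1.73 CPM in ddm1. Its ddm1 libraries were uneven, with 4, 30 and 11 counts, so that mean rests mostly on ddm1 replicate 2. The polymerase mutant libraries overlapped the ddm1 libraries at this locus.

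The most abundant loci differed between genotypes. In ddm1cmt2 the neighbours AT2TE12310 and AT2TE12315 led, with 14.7, 19.1 and 34.1 CPM for the first, against 50.6, 37.6 and 42.4 CPM in ddm1nrpd1, 39.3, 28.5 and 28.7 CPM in ddm1nrpe1 and 8.02, 6.91 and 12.7 CPM in ddm1. AT1TE46795 averaged 18.4 ± 2.93 CPM in ddm1cmt2, 32.0 ± 7.04 CPM in ddm1nrpd1, 21.5 ± 2.15 CPM in ddm1nrpe1 and 8.59 ± 2.21 CPM in ddm1 (SD, n = 3 each). AT5TE43275 was uneven in ddm1cmt2, with 21.7, 3.89 and 24.8 CPM, and stood at 110, 84.9 and 100 CPM in ddm1nrpd1, 207, 224 and 231 CPM in ddm1nrpe1 and 9.22, 6.67 and 9.71 CPM in ddm1. Its log2 fold change of ddm1cmt2 against ddm1nrpd1 was -2.59 ± 0.49 (SE, edgeR adjusted p = 0.002), and the difference between the polymerase mutants did not pass the test (-1.17 ± 0.44, adjusted p = 0.07), although their libraries did not overlap. AT5TE38635 averaged 9.50 ± 1.95 CPM in ddm1cmt2, 71.7 ± 11.4 CPM in ddm1nrpd1, 102 ± 5.58 CPM in ddm1nrpe1 and 8.68 ± 1.46 CPM in ddm1, and AT3TE57445 averaged 4.91 ± 0.343 CPM in ddm1cmt2, 60.4 ± 5.01 CPM in ddm1nrpd1, 94.5 ± 7.24 CPM in ddm1nrpe1 and 4.45 ± 1.49 CPM in ddm1.

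The loci nearest the top of the window in ddm1 were not the ones that led elsewhere. AT1TE96100, the most abundant in ddm1, had 11.8, 13.3 and 12.4 CPM in ddm1cmt2, 3.17, 2.1 and 3.31 CPM in ddm1nrpd1, 4.55, 7.61 and 7.82 CPM in ddm1nrpe1, and 9.66, 10.6 and 8.75 CPM in ddm1. It was higher in ddm1cmt2 than in ddm1nrpd1 by 2.16 ± 0.21 on the log2 scale and than in ddm1nrpe1 by 0.91 ± 0.19 (SE, edgeR adjusted p = 5.6e-07 and 0.0009). AT4TE16570 averaged 14.9 ± 2.78 CPM in ddm1cmt2, 9.55 ± 0.454 CPM in ddm1nrpd1, 18.5 ± 0.785 CPM in ddm1nrpe1 and 9.59 ± 0.721 CPM in ddm1. AT1TE54000 averaged 6.95 ± 0.941 CPM in ddm1cmt2, 5.63 ± 0.493 CPM in ddm1nrpd1, 2.89 ± 0.121 CPM in ddm1nrpe1 and 9.53 ± 0.513 CPM in ddm1. AT5TE47130, AT1TE53660 and AT2TE08665 stayed between 6.25 and 10.4 CPM in all genotype means.

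A further 124 of the 824 loci (15.0%) passed the threshold in none of the 6 contrasts, close to the 15.6% of all tested loci that passed in none. AT4TE28200 varied least, with means of 8.09 ± 0.537 CPM in ddm1cmt2, 8.61 ± 1.66 CPM in ddm1nrpd1, 8.00 ± 0.55 CPM in ddm1nrpe1 and 8.19 ± 0.875 CPM in ddm1 (SD, n = 3 each), and no pair of genotypes differed by more than 0.10 on the log2 scale. AT3TE58655, AT5TE54510, AT5TE37075 and AT3TE50630 followed, with largest differences of 0.13 to 0.18. The standard errors at AT5TE37075 reached 0.40, so a change of modest size could not be detected there.

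The tilt between the double mutants varied with the level in ddm1. These groups are cut by the ddm1 values that also chose the loci. Loci picked as low in ddm1 tend to be low in a genotype near ddm1 as well, so the order of the medians is a description and was not tested. Among the 248 loci of 1 to under 2 CPM in ddm1, the median log2 fold change was -0.56 for ddm1cmt2 against ddm1nrpd1 and -0.53 for ddm1cmt2 against ddm1nrpe1. Among the 315 loci of 2 to under 5 CPM the medians were -0.33 and -0.46, and among the 261 loci of 5 to under 10 CPM they were -0.14 and -0.14. The TE loci outside the window lay on either side of these values. The 356 tested TE loci under 1 CPM in ddm1 had medians of -2.20 and -2.69, with 70.8% and 79.5% lower in ddm1cmt2, and the 723 TE loci at 10 CPM or more had medians of 0.02 and -0.10, with 30.4% and 38.0% lower. Of the 389 loci under 1 CPM in ddm1, 356 passed the filter on low counts, and a genotype in which a locus was high could carry it through, so these shares are not those of all such loci. Over the 22 alternative settings and left-out libraries the medians of the 3 groups of loci ran from -0.62 to -0.47, -0.40 to -0.25 and -0.20 to -0.08 against ddm1nrpd1.

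By chromosome, the contrast between the polymerase mutants was uneven. On chromosome 4, 56 of 131 loci (42.7%) were lower in ddm1nrpd1 than in ddm1nrpe1 and 8 (6.11%) were higher, with a median log2 fold change of -0.39. The medians on chromosomes 1, 2, 3 and 5 were -0.03, 0.05, 0.01 and 0.01, and over these 4 chromosomes 21.2% of 693 loci were lower. TE loci outside the window had a similar tilt on chromosome 4: 63.4% of the 131 loci at 10 CPM or more in ddm1 and 43.1% of the 65 tested loci under 1 CPM were lower in ddm1nrpd1, beside 29.4% and 29.6% on the other 4 chromosomes. Of 3532 loci on chromosome 4 that are no TE loci, 21.7% were lower, beside 18.5% of 19248 on the other chromosomes. The chromosome 4 count of lower calls ran from 44 to 63 over the 22 alternative settings and left-out libraries, and the median from -0.45 to -0.34. The set was noticed in these data, so no test was made of it.

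On the same chromosome 4 loci, ddm1cmt2 against ddm1nrpd1 had a median of 0, with 36 loci (27.5%) higher and 45 (34.4%) lower. All tested loci were higher in 26.0% and lower in 24.5%, so the share higher was near theirs. In ddm1cmt2 against ddm1nrpe1 the median was -0.46, with 11 (8.40%) higher and 62 (47.3%) lower, beside 26.9% and 28.2% of all tested loci. On chromosome 3 the medians of these contrasts were -0.68 and -0.53, and on chromosome 5 they were -0.13 and -0.02. Transposon identifiers of this genome are numbered along each chromosome, and within bands of 5000 numbers the tilt between the polymerase mutants was not confined to chromosome 4. In the band from 45000 to 49999 on chromosome 1, 21 of 44 loci (47.7%) were lower in ddm1nrpd1, with a median of -0.60, and in the band from 15000 to 19999 on chromosome 4, 25 of 54 (46.3%) were lower, with a median of -0.50. Of all tested loci, 19.7% were lower in ddm1nrpd1. These bands were picked after their values had been seen.

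**Figure D4:**
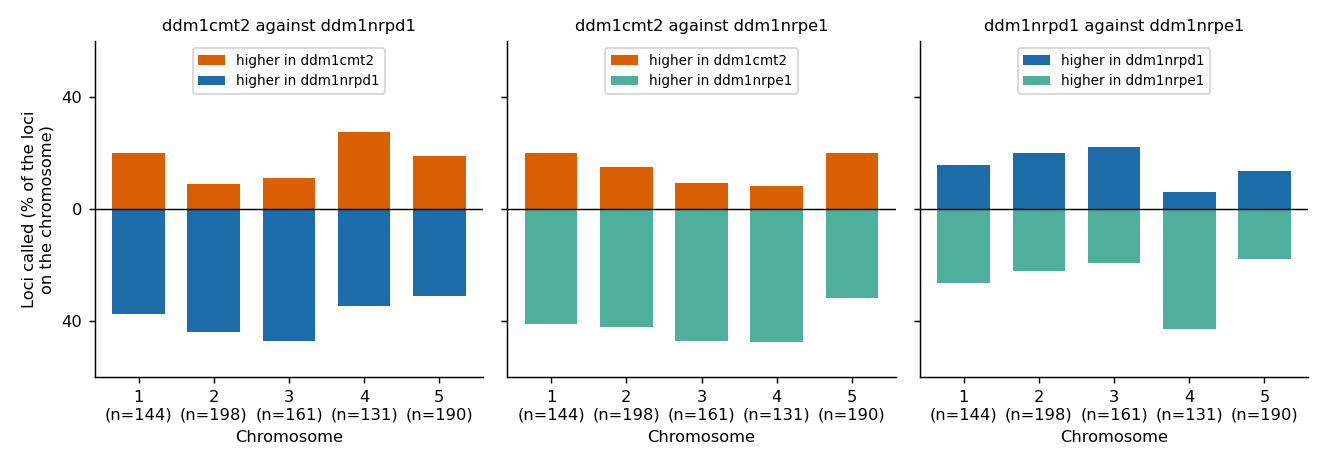
Share of the TE loci on each chromosome (percent, n under each bar) that passed an adjusted p under 0.05, drawn upward where higher in the first-named genotype and downward where lower. In ddm1nrpd1 against ddm1nrpe1, the downward bar of chromosome 4 reaches 42.7% and its upward bar 6.11%, beside 19.7% and 16.4% of all tested loci.

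Loci that follow each other in the numbering were seldom called in opposite directions. Pairs of loci that are not neighbours were not counted for comparison, so the counts below are a description. There are 105 pairs of the 824 loci whose numbers differ by 5, and they involve 193 loci. In ddm1cmt2 against ddm1nrpd1, both loci were lower in 37 pairs, both higher in 7 and opposite in 1, while 1 of the 2 loci was called in 25 pairs and neither in 35. In ddm1cmt2 against ddm1nrpe1 the counts were 44, 2, 3, 21 and 35. In ddm1nrpd1 against ddm1nrpe1 they were 23, 4, 1, 26 and 51. Neighbours can be pieces of one element or one transcript, so the 824 loci are not 824 independent units. AT1TE50795 and AT1TE50800 had identical counts in every library, as did AT1TE56420 and AT1TE56425, and AT2TE17655 and AT2TE17660. AT1TE53815 and AT1TE53825, farther apart in the numbering, did so too. Such loci must agree, yet each enters the calls and sums as a separate locus. Whether the same reads were counted under both identifiers was not tested. AT1TE46265 and AT1TE46270 are a pair that did not move together, with log2 fold changes of ddm1cmt2 against ddm1nrpe1 of -5.64 and -0.25; this pair was picked after its values had been seen.

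Many of these loci have a parallel among pseudogene identifiers of the table. For 158 loci (19.2%), a pseudogene locus of the same chromosome had log2 levels within 0.2 (root mean square over the 12 libraries, with 0.1 CPM added). AT2TE58010 and the pseudogene locus AT2G31080 had r = 1 over the 12 libraries and differed by 0.04, and AT3TE48285 and AT3G29772 had r = 1 and differed by 0.02. AT3TE51900 was closest to AT3G30843, with r = 1 and a difference of 0.27, and AT3TE51895 to AT3G30844, with r = 0.999 and a difference of 0.26. These correlations share libraries and depth and are descriptions. Whether the same reads were counted under both identifiers was not tested, and the counting of reads that match several places is not stated, so levels of single copies of a repeated element are uncertain.

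Genes of the silencing pathways also differed between the double mutants, in shares near those of all tested loci in ddm1cmt2 against ddm1nrpd1. Of 13 genes of DNA and H3K9 methylation, 4 were higher and 3 lower in ddm1cmt2 than in ddm1nrpd1, beside 26.0% and 24.5% of all tested loci, with a median log2 fold change of 0.13. SUVH6, an H3K9 methyltransferase gene, averaged 20.9 ± 0.591 CPM in ddm1cmt2 and 12 ± 0.595 CPM in ddm1nrpd1 (SD, n = 3 each), a log2 fold change of 0.80 ± 0.10 (SE, edgeR adjusted p = 6.9e-06). ROS1 was higher in ddm1cmt2 by 3.79 ± 0.22 against ddm1nrpd1 and 3.98 ± 0.22 against ddm1nrpe1 (SE, edgeR adjusted p = 5.3e-09 and 3.4e-09). Against ddm1nrpe1, 6 of the 13 were higher and 1 lower in ddm1cmt2, beside 26.9% and 28.2% of all tested loci, with a median of 0.35. Between the polymerase mutants 6 were higher and 0 lower in ddm1nrpd1, beside 16.4% and 19.7% of all tested loci, with a median of 0.27. Among them was CMT3, the chromomethylase of CHG sites, at 31.3 ± 4.03 CPM in ddm1nrpd1 and 21.4 ± 1.77 CPM in ddm1nrpe1.

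Of 23 measured genes of RdDM and RNA silencing, 8 were higher and 3 lower in ddm1cmt2 than in ddm1nrpd1, 8 were higher and 3 lower in ddm1cmt2 than in ddm1nrpe1, and 5 were higher and 3 lower in ddm1nrpd1 than in ddm1nrpe1. All tested loci were higher in 26.0% and lower in 24.5% in the first of these contrasts, 26.9% and 28.2% in the second, and 16.4% and 19.7% in the third. A mutated gene had the smallest adjusted p of the list in each contrast, NRPD1 with a log2 fold change of -1.58 ± 0.19 in ddm1cmt2 against ddm1nrpd1 and NRPE1 with -2.30 ± 0.15 in ddm1cmt2 against ddm1nrpe1 (SE, edgeR adjusted p = 6.1e-06 and 5.8e-09). CLSY1, a chromatin factor that recruits polymerase IV, averaged 7.90 ± 1.75 CPM in ddm1cmt2 and 3 ± 0.567 CPM in ddm1nrpe1 (SD, n = 3 each). RDM1, which links RdDM proteins to DRM2, averaged 6.05 ± 0.234 CPM in ddm1cmt2, 11.7 ± 1.61 CPM in ddm1nrpd1 and 12.6 ± 2.77 CPM in ddm1nrpe1.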

How the data were processed

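The authors deposited raw read counts per locus and, beside them, CPM values, which equal each count scaled by its column sum. Per the submitters' processing notes the build is TAIR10 and the tools include Trimmomatic, TopHat, HTSeq and edgeR, without roles or versions. Annotation, strand setting and the handling of reads that match several loci are not stated. No genome, TE family, length, position or sequence was used, so levels of different loci are not per length. The 12 RNA libraries were used and the other 30 samples were not analysed here. The analysis ran in R 4.3.3 and edgeR 4.0.16: filterByExpr kept 24839 of 25069 loci, TMM factors scaled libraries, and 1 model of 4 group means (8 residual degrees of freedom) was fitted with quasi-likelihood dispersions. Benjamini-Hochberg adjustment ran over all tested loci, at 0.05. Standard errors are the log2 fold change over the square root of F. Steps were tested on simulated data.

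Named loci were taken, per contrast between double mutants, from the 8 highest and 8 lowest by log2 fold change among called loci that reached 1 CPM in their higher genotype and whose libraries did not overlap (6 and 6 against ddm1), the 6 strongest in all 3 contrasts, the 6 most abundant per genotype, the 3 loci nearest each side of the window's edges, and the 5 steadiest uncalled loci. The members, gene lists, marker lists and this rule were chosen with earlier results of these data known. Replicate numbers did not pair the samples: correlations of deviations from group means between samples of the same number ran from -0.303 to 0.215, with 3 of 18 above 0.1. The settings varied were the scaling (RLE factors, upper-quartile factors, TMM without TE loci), the tool (DESeq2 1.42.0, or voom from limma 3.58.1), the filter (none, or CPM of at least 1 in 3 libraries), the libraries fitted (6 per comparison, or each left out), a block for the replicate number, removal of organelle loci, a 2-fold minimum and the window. Groups of loci by chromosome, ddm1 level and identifier were run under these settings by a choice made after seeing the data.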

Additional observations from a re-analysis of the deposited data

How the results depend on the processing

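The summed levels, run under fewer of the alternatives, kept their direction in those. Loci named by a contrast were followed in that contrast and kept their direction there. Loci named as most abundant, steadiest or nearest the window's edges were not followed under that naming. The balance of higher and lower calls among the 824 loci in each contrast kept its direction under every alternative run. Among groups of loci by chromosome or identifier this did not hold: on chromosome 3, ddm1nrpd1 against ddm1nrpe1 had 36 higher and 31 lower calls but 22 and 30 without ddm1nrpe1 replicate 2, and on chromosome 4 from identifier 15000, ddm1cmt2 against ddm1nrpd1 had 18 and 17 but 12 and 15 without ddm1nrpd1 replicate 2. With at least a 2-fold change the counts of loci fell to 78 higher in ddm1cmt2 against ddm1nrpd1, to 71 higher in ddm1cmt2 against ddm1nrpe1, to 69 higher and 90 lower in ddm1nrpd1 against ddm1nrpe1, and, against ddm1, to 22 higher and 101 lower in ddm1cmt2, 89 lower in ddm1nrpd1 and 109 lower in ddm1nrpe1. With the window narrowed to 2 to under 5 CPM (315 loci), the higher and lower counts were 44 and 122 for ddm1cmt2 against ddm1nrpd1, 41 and 140 for ddm1cmt2 against ddm1nrpe1, 43 and 82 for ddm1nrpd1 against ddm1nrpe1, and, against ddm1, 18 and 69 for ddm1cmt2, 96 and 59 for ddm1nrpd1 and 105 and 65 for ddm1nrpe1, as the smaller set of loci entails. The summed level was 2672.9 CPM in ddm1cmt2 on the deposited CPM and 2697.4 CPM in CPM without plastid and mitochondrial loci, and in ddm1nrpe1 it was 6645.9 CPM with upper-quartile factors and 6945.8 CPM over the 821 loci that TMM-scaled CPM would place in the window, of which 814 are shared. Leaving out each library in turn gave 99 to 142 higher and 289 to 332 lower for ddm1cmt2 against ddm1nrpd1, 99 to 132 and 315 to 343 for ddm1cmt2 against ddm1nrpe1, and 82 to 147 and 157 to 213 for ddm1nrpd1 against ddm1nrpe1, the 82 without ddm1nrpe1 replicate 2. Against ddm1 it gave 39 to 60 higher and 121 to 185 lower in ddm1cmt2, 208 to 237 and 118 to 177 in ddm1nrpd1, and 239 to 270 and 149 to 193 in ddm1nrpe1. The summed level ran from 2849 to 3017.9 CPM in ddm1cmt2, 5261.8 to 5545.5 in ddm1nrpd1, 6722.8 to 6842.1 in ddm1nrpe1 and 3113.3 to 3277.9 in ddm1. With the replicate number as a block, the higher and lower counts were 135 and 316, 116 and 343, and 132 and 194 for the 3 contrasts in the same order, and 50 and 167, 226 and 161, and 263 and 182 for ddm1cmt2, ddm1nrpd1 and ddm1nrpe1 against ddm1. AT3TE59350 and AT2TE26610 lost their calls against ddm1 in some alternatives, as AT3TE43550 and AT5TE39230 did in theirs. The causes of these shifts were not tested. Depth limits the loci under 1 CPM, where few counts stand behind a group.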
